A study of Mus musculus with 4 samples.

Results

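The genes described here are 10 dendritic cell genes, chosen by name among the 55401 Ensembl genes of the deposited count table, and all 10 were found there. Of these, 7 belong to maturation (Ccr7, Fscn1, Ccl22, Ccl17, Cd83, Ido1 and Ido2) and 3 to lineage identity (Zbtb46, Flt3 and Cd209a). They were measured by RNA-seq of poly(A) RNA from bone marrow-derived macrophages, macrophages that form from cultured marrow cells, here of C57BL/6J mice. Every culture, control or knockout, was given a CRISPR-Cas9 lentivirus (multiplicity of infection 30) on day 1 and took 5 days to differentiate. In 2 libraries the virus targeted Adcy7, which encodes an adenylyl cyclase, an enzyme that makes cyclic AMP (Adcy7 knockout), and in the other 2 it targeted Rosa, a locus commonly used as a neutral target (Rosa control). The labels do not name the guides, any selection or clone, or whether the replicates came from separate mice or cultures. The p-values below thus rest on the spread of these 4 libraries alone, and that spread may be technical. Strand-specific counting is not stated, so antisense reads cannot be told apart.

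Dendritic cells take up antigen in tissues and, once they meet microbial or inflammatory signals, mature: they raise the chemokine receptor that leads them to lymph nodes, remodel their actin, display costimulatory molecules and secrete chemokines that draw T cells. Much of this maturation set is driven through NF-kB and can also be switched on in stimulated macrophages, whereas the transcription factor Zbtb46 and the growth factor receptor Flt3 mark the conventional dendritic cell lineage and its progenitors. The comparison of knockout with control asks how these genes differ once Adcy7 is targeted, and whether the lineage genes move as the maturation genes do.

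The libraries held 61782358 to 71914179 counts. Adcy7 itself was at 59.4 and 58.8 CPM (counts divided by the library total and scaled to 1e+06) in the knockout libraries and at 122 and 125 CPM in the controls, so the targeted transcript was lower but still present, at 0.484 times the control level. The macrophage label was checked against 15 macrophage markers. Their summed level was 25528 and 25204 CPM in the knockout and 61679 and 63303 CPM in the control, most of it Lyz2. Without Lyz2 it was 9060 and 8764 CPM against 11321 and 11093 CPM. Of the 15, 12 fell, among them Csf1r, Adgre1 and Lyz2 (named after their values were seen), although none was at 0 in all libraries. Across all genes, 15832 passed the filter on low counts, and 49.6% of these passed edgeR's quasi-likelihood test at a Benjamini-Hochberg adjusted p of 0.05, 25.0% higher and 24.6% lower in the knockout. Counts of members, and of the further lists and cell type markers below, are to be read against these shares.

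All 7 maturation members rose in the knockout, each at least 8-fold higher in the fit, while of the 3 lineage members Zbtb46 and Flt3 rose about 3.2-fold and 2.6-fold and Cd209a was too rare to be tested. Among all tested genes 25.0% rose and 4.10% both passed and were at least 8-fold higher. The 8-fold mark was not part of the planned design. It lies just under the smallest of the 7 fold changes (Cd83, 9.58-fold), so that all 7 exceed it adds no support. The counting intervals of Ccl17 and Ido1, given below, reach under it, to 1.98-fold and 2.88-fold. The summed level of the 7 maturation members was 176 and 170 CPM in the knockout libraries and 10.2 and 10.9 CPM in the controls. For the 3 lineage members it was 2.52 and 2.40 CPM in the knockout and 1.20 and 0.801 CPM in the control. The median log2 fold change was 4.09 over the 7 maturation members and 1.53 over the 2 tested lineage members, against 0.01 over all tested genes. The first of these medians is the same when Ido2, which had no control count, is set to its lower bound. No test compares the maturation with the lineage members as groups, since both were chosen by name with results of these data known. In RNA from bulk cultures, more cells that carry a transcript and more RNA per cell cannot be told apart.

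**Figure D1:**
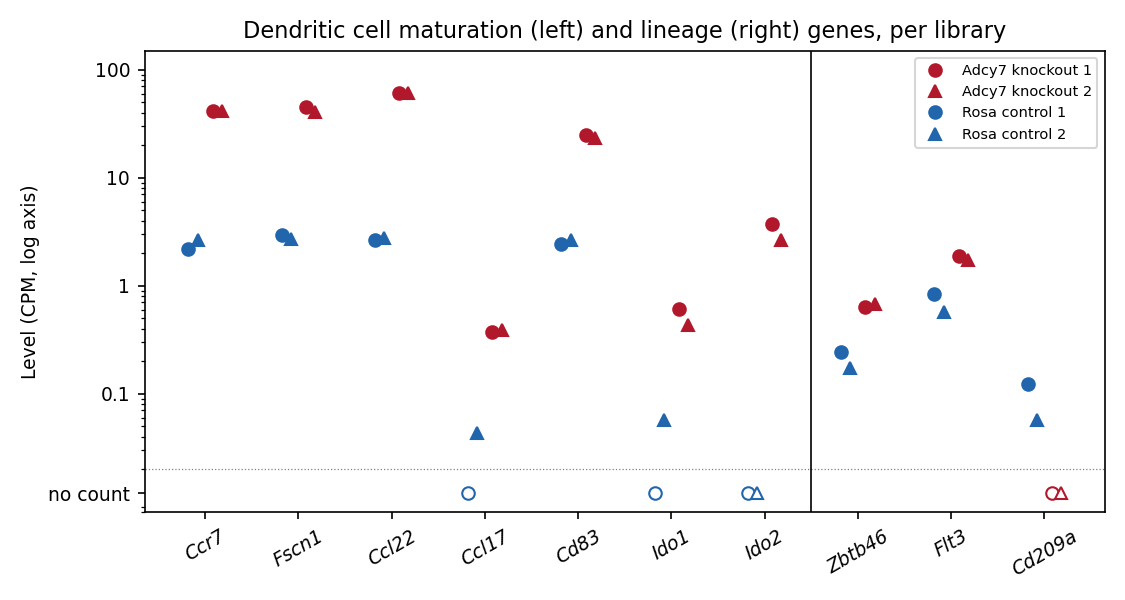
Level of each gene in each library in CPM on a log axis, with maturation genes left and lineage genes right of the vertical line; circles are replicate 1, triangles replicate 2, and open symbols mark libraries with no count. Both knockout libraries lie above both controls for 9 of the 10 genes, and the lineage genes stay below 2 CPM in all 4 libraries.

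For 9 of the 10 members both knockout libraries lay above both controls, as they did for 37.4% of all tested genes, and for Cd209a both lay below, as for 37.8% of tested genes. The plot of levels by library shows the 4 abundant maturation genes, Ccl22, Fscn1, Ccr7 and Cd83, as tight pairs far apart between the groups.

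Ccr7 encodes the receptor for the chemokines CCL19 and CCL21, which guide maturing dendritic cells, and also naive T cells and B cells, into lymph nodes. Ccr7 (ENSMUSG00000037944, chromosome 11) was at 41.1 and 41.1 CPM in the knockout libraries and at 2.17 and 2.68 CPM in the controls. The groups were far from overlapping, and the knockout pair differed by less than the control pair. The log2 fold change was 4.09 (standard error, SE, 0.16), or 17.1-fold (edgeR adjusted p 7.35e-09). Its ligand genes Ccl19 and Ccl21a had no count in any of the 4 libraries.

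Fscn1 encodes fascin, which bundles actin filaments into the long dendrites of mature dendritic cells. Fscn1 (ENSMUSG00000029581, chromosome 5) was at 45.2 and 40.7 CPM in the knockout and at 2.95 and 2.69 CPM in the control. Every knockout value was thus above 40 CPM and every control value below 3 CPM. The difference was 3.95 on the log2 scale (SE 0.15), or 15.4-fold (edgeR adjusted p 8.28e-09).

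Ccl22 and Ccl17 encode chemokines that both signal through CCR4, a receptor of regulatory and helper T cells, and they lie on chromosome 8 with 1 protein-coding gene, Cx3cl1, between them. Ccl22 (ENSMUSG00000031779) was at 60.4 and 61.5 CPM in the knockout and at 2.63 and 2.79 CPM in the control. Among the members with counts in every library it had the largest fold change, 22.7-fold, or 4.50 on the log2 scale (SE 0.14) with an adjusted p of 1.97e-09 in edgeR's test. Ccl17 (ENSMUSG00000031780) was at 0.375 and 0.388 CPM in the knockout, and at 0 and 0.0429 CPM in the control. These are 27 and 24 counts against 0 and 3 counts, close to the limit of detection, so the 2 genes of the pair stood at very different levels in the same libraries. Ccl17 passed (adjusted p of 0.00795 in edgeR's test, log2 fold change 4.01, SE 1.08). The knockout-to-control ratio of its pooled counts was 17.2, with a 95% exact counting interval of 1.98 to 561 if 1 fragment is worth 4 counts. Ccl17 rested on single control libraries. Without control replicate 1 its log2 fold change was 3.09 and it did not pass (adjusted p of 0.109), and without control replicate 2 no control count was left, so no fold is given. Ccr4, the gene of the receptor for both chemokines, had no count in the control and 22 and 15 counts in the knockout, which makes it at least 3.13-fold higher (adjusted p of 0.012 in edgeR's test). It did not pass when either control library or knockout replicate 1 was left out, at adjusted p values of 0.0809, 0.0804 and 0.0532, nor without the low-count filter (0.0589).

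Cd83 encodes a surface protein that serves as a standard marker of mature dendritic cells and is also made by activated B cells and macrophages. Cd83 (ENSMUSG00000015396, chromosome 13) was at 24.9 and 23.3 CPM in the knockout and at 2.42 and 2.66 CPM in the control. It had the smallest fold change of the maturation members, 9.58-fold, or 3.26 on the log2 scale (SE 0.16), with an edgeR adjusted p of 5.71e-08.

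Ido1 and Ido2 are adjacent genes on chromosome 8 that encode indoleamine 2,3-dioxygenases, the enzymes that open the ring of tryptophan and start the kynurenine pathway. Ido2 (ENSMUSG00000031549) was at 3.74 and 2.62 CPM in the knockout, or 269 and 162 counts, and had no count in either control library. Against a floor of 12 pooled counts (3 fragments, 0.0885 CPM in the control) it was at least 36.4-fold higher, with an adjusted p of 2.29e-05 in edgeR's test. Ido1 (ENSMUSG00000031551) was at 0.612 and 0.437 CPM in the knockout and at 0 and 0.0572 CPM in the control, which is 44 and 27 counts against 0 and 4. Ido1 passed with a log2 fold change of 4.10 (SE 0.99) and an adjusted p of 0.00431 in edgeR's test. The ratio of its pooled counts was 18.0, with a 95% exact counting interval of 2.88 to 761. Without control replicate 1 the log2 fold change of Ido1 was 3.16 (adjusted p of 0.0474), and without control replicate 2 no control count was left. Of the enzyme pair, the better known Ido1 was therefore the less abundant in the knockout libraries, at 0.287 CPM per kb of exon against 0.875 for Ido2.

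The 3 lineage members were all rare. Zbtb46, the transcription factor that sets conventional dendritic cells apart from macrophages and monocytes, (ENSMUSG00000027583, chromosome 2) was at 0.640 and 0.680 CPM in the knockout and at 0.243 and 0.172 CPM in the control, or 46 and 42 counts against 16 and 12. The groups did not overlap, and the log2 fold change was 1.68 (SE 0.57) with an adjusted p of 0.0298 in edgeR's test. This call was lost in each fit that left out a library (adjusted p from 0.102 to 0.188), and in DESeq2 (adjusted p of 0.0985). With the replicate number as a block Zbtb46 had an adjusted p of 0.0583, and without the low-count filter 0.0552. Its log2 fold change lay between 1.46 and 1.92 in all 12 settings that tested it.

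Flt3, the receptor whose ligand drives dendritic cell development from marrow progenitors, (ENSMUSG00000042817, chromosome 5) was at 1.88 and 1.72 CPM in the knockout and at 0.836 and 0.572 CPM in the control. Both knockout values exceeded both control values, by 2.60-fold in the fit (log2 fold change 1.38, SE 0.37, adjusted p of 0.00935 in edgeR's test). Flt3 did not pass without knockout replicate 1 (adjusted p of 0.0502) or without control replicate 2 (0.0667). Flt3l, the gene of its ligand, fell from 11.9 and 12.9 CPM in the control to 8.16 and 8.89 CPM in the knockout (log2 fold change -0.53, SE 0.15, adjusted p of 0.012 in edgeR's test). That call ended without control replicate 2, at an adjusted p of 0.105.

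Cd209a encodes the DC-SIGN-like C-type lectin found on monocyte-derived and type 2 conventional dendritic cells. Cd209a (ENSMUSG00000031494, chromosome 8) had 8 and 4 counts in the control and 0 in both knockout libraries, and it did not pass the low-count filter. Both groups were at or under the floor of 12 pooled counts, so no fold is given, and in the knockout a count of 0 allows a level of up to 0.0898 CPM. The 6 other genes of the family, Cd209b to Cd209g, had no count in any library. No exon of another annotated gene overlapped an exon of any of the 10 members.

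**Figure D2:**
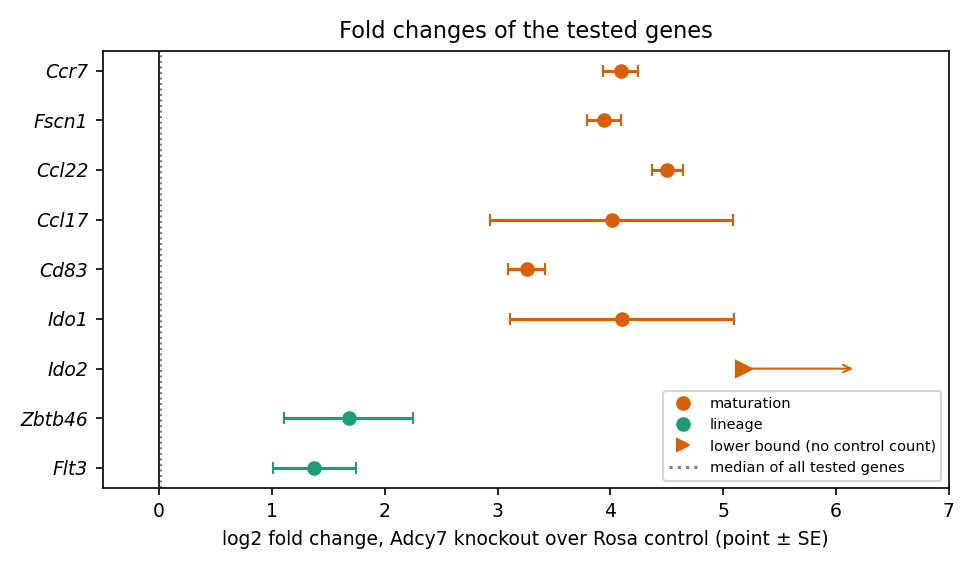
Log2 fold change, Adcy7 knockout over Rosa control, of the 9 tested genes with its standard error, from edgeR's fit over all genes; the triangle with an arrow is the lower bound for Ido2, and the dotted line is the median of all tested genes (0.01). Maturation genes lie between 3.26 and 4.50, with Ido2 at 5.19 or above, and the lineage genes Zbtb46 and Flt3 at 1.68 and 1.38.

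Scaled by exon length, the order of the members in the knockout began with Ccl22 (26.2 CPM per kb), Ccr7 (20.8), Fscn1 (14.3) and Cd83 (9.37), whose library values did not overlap with those of their neighbours. Ido2 (0.875) and Ccl17 (0.743) came next, far lower, and overlapped in their libraries, as did Flt3 (0.291) and Ido1 (0.287), and Zbtb46 was at 0.0775. In the control the 4 abundant genes stood close together, from Ccr7 at 1.23 and Ccl22 at 1.17 to Cd83 at 0.987 and Fscn1 at 0.936 CPM per kb. There Ccr7 overlapped with Ccl22 and Cd83 with Fscn1, so their order was not beyond the spread of the libraries. Flt3 followed in the control at 0.114 CPM per kb, and Ido2 was the lowest, with no count.

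RefSeq promoter windows on GRCm38.p6, from 250 bases before to 50 after the gene start, were at hand for 6 of the 10 members: Ccl17, Ccl22, Cd209a, Flt3, Fscn1 and Zbtb46. The counts were made on another build, GRCm39, so these coordinates serve only to place the sequences. Shown here are Fscn1, the only one of the 6 windows with a full cyclic AMP response element (CRE), Ccl22, the member of this set with the largest fold change, and Zbtb46, a lineage gene. In the Zbtb46 window the bases just before the gene start are a pyrimidine-rich stretch and cag, the form of an intron end. The part before the start may thus be intron and not promoter. Its AP-1 motif is given only as letters in that window. Capitals mark the CRE TGACGTCA and the TATA box TATAAA in Fscn1, the CRE core TGACG in Ccl22, and the AP-1 motif TGANTCA in Zbtb46.
Fscn1 promoter, chr5:142960105-142960404, plus strand: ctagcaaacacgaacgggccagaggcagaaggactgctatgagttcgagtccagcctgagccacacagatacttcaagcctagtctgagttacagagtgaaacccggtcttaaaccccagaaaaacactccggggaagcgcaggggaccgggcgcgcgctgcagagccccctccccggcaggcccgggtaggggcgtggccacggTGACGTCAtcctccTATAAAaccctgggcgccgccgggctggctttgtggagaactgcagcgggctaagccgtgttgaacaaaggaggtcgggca
Ccl22 promoter, chr8:94745434-94745733, plus strand: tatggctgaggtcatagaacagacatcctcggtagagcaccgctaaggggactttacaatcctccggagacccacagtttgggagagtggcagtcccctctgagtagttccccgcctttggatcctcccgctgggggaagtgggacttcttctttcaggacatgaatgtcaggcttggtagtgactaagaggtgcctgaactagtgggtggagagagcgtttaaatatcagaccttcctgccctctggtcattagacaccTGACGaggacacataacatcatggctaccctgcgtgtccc
Zbtb46 promoter, chr2:181424339-181424638, minus strand: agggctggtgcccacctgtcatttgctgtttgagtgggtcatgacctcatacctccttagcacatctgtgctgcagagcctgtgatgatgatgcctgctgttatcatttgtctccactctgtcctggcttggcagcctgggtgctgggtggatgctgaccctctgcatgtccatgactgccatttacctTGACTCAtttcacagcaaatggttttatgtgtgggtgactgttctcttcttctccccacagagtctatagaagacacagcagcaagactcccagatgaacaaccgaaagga
In Fscn1 the CRE spans bases -45 to -38 from the gene start and the TATA box bases -31 to -26. The CRE is palindromic, and it contains the CRE core on each strand. Searched on both strands, the CRE occurred in 1.79% of all 32851 windows of this length, the CRE core in 20.8%, the TATA box in 13.6% and the AP-1 motif in 7.81%. The kB consensus, the PU.1 core GAGGAA and the interferon-stimulated response element (ISRE) occurred in 8.46%, 28.3% and 3.44% of windows. Of the 6 member windows, 1 held the CRE, 2 the CRE core (Fscn1 and Ccl22), 2 a TATA box (Fscn1 and Cd209a), 1 the AP-1 motif (Zbtb46) and 1 the PU.1 core (Ccl17), and none held the kB consensus or the ISRE. The TATA box match in Cd209a lay at bases -184 to -179 on the other strand, unlike that in Fscn1. The CRE core in Ccl22 lay after the gene start, at bases 11 to 15. A match describes the letters in the window and not binding.

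Beyond the members, 44 further maturation genes were listed, of which 41 were tested. Of these 24 rose, 9 fell and 8 did not pass, where 25.0% of all tested genes rose and 24.6% fell. The median log2 fold change of the list was 0.86. H2-M2, a nonclassical class I gene, was at 50.3 and 74.3 CPM in the knockout and at 0.0912 and 0.114 CPM in the control. Il6, an inflammatory cytokine gene, was at 69.2 and 108.5 CPM against 0.882 and 0.343. Cd200, which encodes a surface ligand that restrains myeloid cells, was at 49.4 and 62.7 CPM against 0.928 and 1.26. On the log2 scale the differences were 9.22 (SE 0.34) for H2-M2, 7.20 (SE 0.31) for Il6 and 5.68 (SE 0.20) for Cd200. Without control replicate 1, which left only the lower control value, that of Il6 was 7.99. Cd274, which encodes PD-L1, rose 9.30-fold, the T cell attracting chemokine gene Ccl5 8.41-fold, and Traf1, a signalling adaptor of TNF receptors, 6.96-fold. The members named from here to the end of the paragraph were chosen after their values were seen. The costimulatory genes parted ways: Cd86 and Cd80 rose 1.98-fold and 1.89-fold, and Cd40 fell by 0.52 on the log2 scale (SE 0.12), with an adjusted p of 0.00496 in edgeR's test. Il15, a cytokine gene that supports T and NK cells, fell by 1.32 and Stat4 by 1.66. Lamp3, a lysosomal protein gene used as a marker of mature dendritic cells, had 0 and 13 counts in the knockout and 0 and 4 in the control, and was not tested. The maturation genes therefore did not all move the way the 7 members did.

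Among 32 further lineage genes, covering type 1, type 2 and plasmacytoid dendritic cells, 29 were tested, of which 12 rose, 10 fell and 7 did not pass, with a median of 0.29. The shares to set beside these are again 25.0% higher and 24.6% lower over all tested genes. Clec10a, a lectin of type 2 dendritic cells and macrophages, was at 0.362 and 0.243 CPM in the knockout and at 14.0 and 11.4 CPM in the control (log2 fold change -5.35, SE 0.30). Irf8, the transcription factor required for type 1 dendritic cells and also made by macrophages, went from 347 and 337 CPM to 110 and 105 CPM (log2 fold change -1.66, SE 0.09). In the opposite direction, Ly75, which encodes the uptake receptor DEC-205, was at 45.7 and 46.2 CPM in the knockout and at 7.34 and 8.50 CPM in the control. Cd24a and Id2, a surface glycoprotein gene and a regulator of type 1 dendritic cell development, rose 4.74-fold and 2.88-fold. Ly6d, found on plasmacytoid and B cell progenitors, rose 15.2-fold. Chosen after their values were seen, the factor gene Batf3 fell from 6.63 and 6.11 CPM to 0.932 and 1.44 CPM, and Itgax, which encodes CD11c, rose from 2.05 and 1.55 CPM to 4.99 and 3.93 CPM. Xcr1 and Clec9a, which define type 1 dendritic cells, stayed below 0.6 CPM in every library and did not pass (adjusted p of 0.282 and 0.0933 in edgeR's test).

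**Figure D3:**
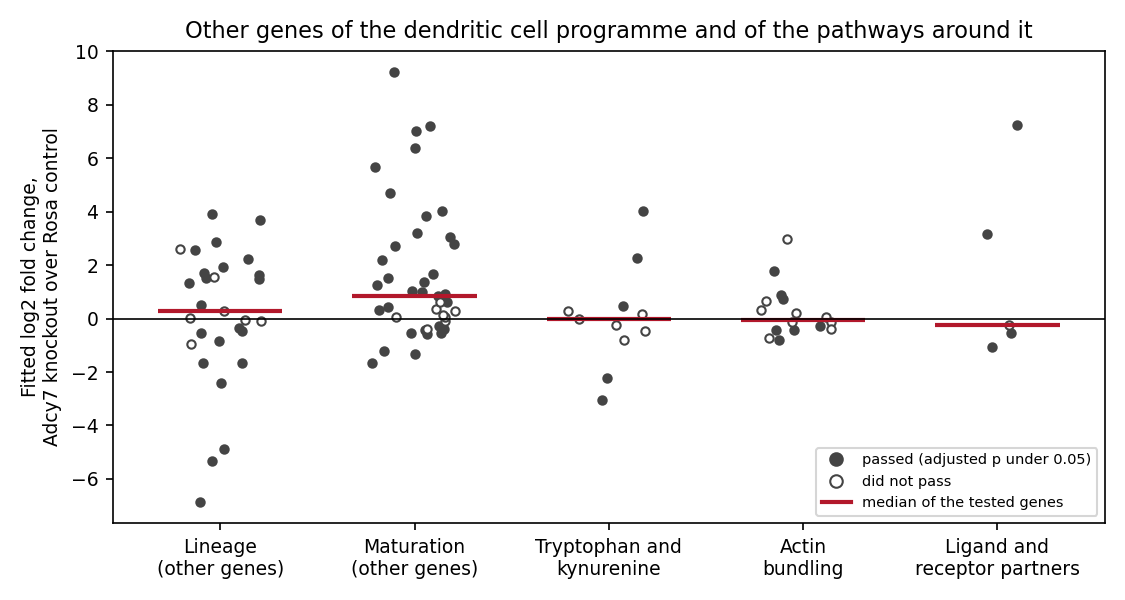
Fitted log2 fold change of each tested gene of 5 lists that exclude the 10 members; filled points passed an adjusted p of 0.05, open points did not, and the bar is the median of the list. The maturation list has 24 genes higher and 9 lower with a median of 0.86, the lineage list 12 higher and 10 lower with a median of 0.29. Of all tested genes 25.0% were higher and 24.6% lower. Il4i1 is in both the maturation and the kynurenine list. Folds of genes with no count in 1 group are fitted values and not bounds.

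Of 14 genes around the Ido enzymes, in tryptophan transport and the kynurenine pathway, 11 were tested, 3 rose, 2 fell and 6 did not pass. For comparison, 25.0% of all tested genes rose and 24.6% fell. Il4i1, a secreted oxidase of aromatic amino acids, is also counted above among the further maturation genes that rose. It was at 3.24 and 5.28 CPM in the knockout and at 0.380 and 0.143 CPM in the control. Its log2 fold change was 4.03, and 4.85 without control replicate 1, which left only the lower control value. Slc3a2, the heavy chain of the transporter that imports tryptophan, rose 4.82-fold, and Wars, the tryptophanyl-tRNA synthetase, rose 1.37-fold. The call of Wars ended without control replicate 1, at an adjusted p of 0.0525. The downstream enzyme genes Haao and Kmo had log2 fold changes of -2.22 (SE 0.21) and -3.03 (SE 0.50). Kmo was at 0.0973 and 0.777 CPM in the knockout and at 3.98 and 2.88 CPM in the control. The knockout libraries of Kmo differed widely, and its log2 fold change was -2.14 without knockout replicate 1 and -5.06 without knockout replicate 2. Kynu and Slc7a5, named after their values were seen, did not pass, and Tdo2, the other enzyme that opens the tryptophan ring, had no count in any library. Ahr, which encodes a receptor for kynurenine and other ligands, was at 15.7 and 15.5 CPM in the knockout and at 1.63 and 1.85 CPM in the control, which is 9.05-fold higher (adjusted p of 1.82e-07 in edgeR's test).

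Around Fscn1, 16 of 17 actin bundling and protrusion genes were tested. Of these 3 rose, 4 fell and 9 did not pass, with a median of -0.04. Over all tested genes 25.0% rose and 24.6% fell. Fmnl2, a formin, rose 3.45-fold, and the crosslinkers Actn1 and Pls3 rose 1.85-fold and 1.65-fold. Cdc42, a small GTPase that drives protrusions, fell by 0.82 on the log2 scale, and Marcks and Myo10 fell by 0.44 and 0.43. Myo10 did not pass without knockout replicate 2, without control replicate 2 or without the low-count filter, at adjusted p values of 0.0569, 0.0988 and 0.0763. Each of these changes was smaller than that of Fscn1. Among the remaining partners, Icam2, whose product binds DC-SIGN, fell by 1.05 on the log2 scale (SE 0.15). Ackr3, a scavenging chemokine receptor, was at 0.403 and 0.809 CPM in the knockout and at 0.395 and 1.00 CPM in the control and did not pass. Ackr4, a scavenger of the Ccr7 ligands, had 8 and 20 counts against 6 and 5 and was not tested.

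Several members are shared with other cells of marrow, and markers of those cells moved in the same libraries; single markers with values here were chosen after these were seen. B cells carry Ccr7 and Cd83, and of 10 B cell markers 6 rose, 1 fell and 3 were not tested. Their summed level was 112 and 113 CPM in the knockout and 52.0 and 48.6 CPM in the control, and without Blnk, the highest, 38.5 and 41.7 CPM against 27.2 and 28.1 CPM. Cd79a, a subunit of the B cell receptor complex, was at 12.5 and 12.9 CPM against 0.897 and 1.35. Cd79b, the marker that fell, was at 15.7 and 17.3 CPM against 25.2 and 25.8 CPM. It made up most of the control sum without Blnk. Flt3 is also made by marrow progenitors. Of 8 stem and progenitor markers 4 rose, among them Kit, at 5.28 and 6.05 CPM against 0.928 and 0.630, and 1 fell (Ly6a). The progenitor sum was 69.2 and 76.9 CPM against 241 and 200 CPM, but Ly6a made up most of it in the control, at 225 and 187 CPM. Without Ly6a the sum was higher in the knockout, at 34.5 and 39.1 CPM against 16.5 and 13.1 CPM. T cells also carry Ccr7, and of 10 T cell markers 4 were tested. Of these Cd28 and Lck rose, and Cd3d and Cd3e, below 0.5 CPM in every library, did not pass. Lck, a kinase of T cell receptor signalling, was at 8.16 and 7.25 CPM against 1.03 and 1.29 (6.70-fold). The T cell sum was 32.1 and 31.7 CPM against 17.9 and 18.3, and without Cd28, the highest, 9.55 and 8.53 against 1.63 and 1.46. The part of B cells, T cells and progenitors in the levels of Ccr7, Cd83 and Flt3 was not tested. NK cell markers summed to at most 0.229 CPM, with Ncr1, Gzma and Klra8 at 0.

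**Figure D4:**
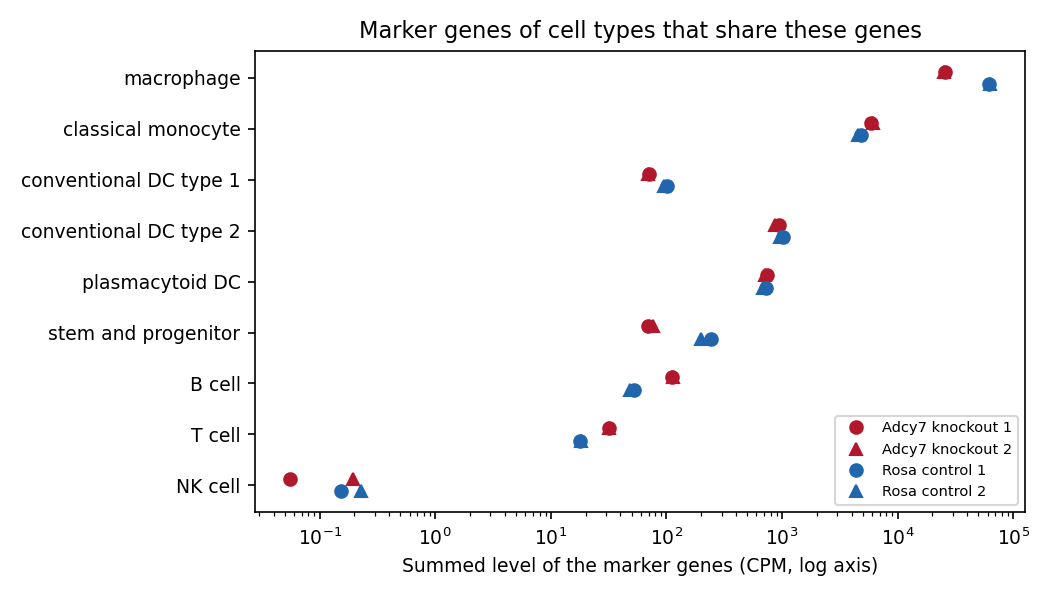
Summed level of the marker genes of 9 cell types in each library in CPM on a log axis; circles are replicate 1, triangles replicate 2, red the Adcy7 knockout and blue the Rosa control. The B cell sum is 112 to 113 CPM in the knockout and 48.6 to 52.0 CPM in the control, and the macrophage sum is lower in the knockout.

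Markers of the dendritic cell types gave no common direction. All of them but Epcam and Klk1 are also in the list of further lineage genes above, so these are the same values grouped by cell type. Of 7 markers of type 1 conventional dendritic cells 2 rose and 2 fell, and their sum was 70.1 and 69.3 CPM in the knockout and 101 and 95.6 CPM in the control, most of it Wdfy4. Without Wdfy4 the groups overlapped, at 8.98 and 11.5 CPM against 11.4 and 11.5 CPM. Of 7 type 2 markers 2 rose and 3 fell, with sums of 936 and 860 CPM against 1015 and 959.6 CPM, nearly all of it Sirpa. Without Sirpa the type 2 sum was 8.91 and 7.27 CPM against 19.2 and 15.4 CPM. Most of that control sum was Clec10a, at 14.0 and 11.4 CPM in the control and 0.362 and 0.243 CPM in the knockout. Esam and Itgax, the 2 markers that rose, made up most of the knockout sum. Of 8 plasmacytoid markers 5 were tested, 2 rose and 1 fell, with sums of 743 and 709 CPM against 726 and 690 CPM, most of it Bst2, which macrophages make too, and without Bst2 36.5 and 39.96 CPM against 23.5 and 26.7 CPM. Siglech, a defining plasmacytoid gene, had no count in the knockout and 0 and 13 counts in the control, and was not tested. Ptcra and Klk1 had no count in any library. Over all tested genes 25.0% rose and 24.6% fell. The mast cell and basophil list shares Gata2 with the progenitor list. Among the other lists, 5 of 7 classical monocyte markers fell and 2 rose. Of tested markers, 5 of 10 neutrophil genes fell and none rose, while 6 of 7 eosinophil, 5 of 6 mast cell and basophil, 10 of 10 megakaryocyte and platelet, 4 of 5 erythroid and 3 of 6 stromal genes rose. Their part in the levels of the 10 members was not tested.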

How the data were processed

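Poly(A) RNA of 4 libraries, 2 Adcy7 knockout and 2 Rosa control, all of batch 1, was analysed. The deposited table holds estimated counts (expected counts) per Ensembl gene, rounded to whole numbers and, as far as the values show, not normalized by the authors. The tools named per the submitters' processing notes are HISAT2, StringTie, fastp and edgeR, with build GRCm39; for their versions, settings and annotation, and for strand, the entry is "not given in the sources used here". Columns named KO3 were matched to the knockout titles by KO and replicate number, and what the 3 stands for is not given. Multiples of 4 made up 30.5% to 32.2% of the values from 1 to 40 (25% without a step), so 1 fragment was assumed to be worth 4 counts, although most low values were no such multiple, for floors (3 fragments, 12 pooled counts) and 95% exact binomial intervals. These cover counting error only, since PCR reads are not independent molecules.

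For 55141 of 55401 IDs a symbol was found in a GRCm38 annotation, not the build of the counts. The ID with the most counts kept a shared symbol, Wars1 was matched as Wars, and Icam3 of the partner list was not matched. Exon lengths are from GENCODE M21. Genes were filtered with filterByExpr, scaled by TMM and tested over all 15832 genes with edgeR 4.0.16 (quasi-likelihood test in its bias-adjusted form, 2 residual degrees of freedom, Benjamini-Hochberg adjustment, threshold 0.05) in R 4.3.3, after a check on simulated data. DESeq2 1.42.0, other scalings and filters, counts divided by 4, a replicate block and leaving out each library were alternatives, and edgeR's older quasi-likelihood form was added after seeing the data. The members and lists were chosen with earlier results of these data known. Named genes are the 10 members, Adcy7, the tested partners and up to 6 genes of smallest adjusted p with a mean of at least 1 CPM from each other list.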

Additional observations from a re-analysis of the deposited data

How the results depend on the processing

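All 7 maturation members passed in the fits that tested all 7, except 6 of 7 without control replicate 1. With counts divided by 4, and with a filter of 1 CPM in 2 libraries, 5 were tested and 5 passed, since Ccl17 and Ido1 fell out. The lineage members, 2 of which passed, were less settled: 1 passed without the low-count filter, 1 of 1 tested with the filter of 1 CPM in 2 libraries, 1 with the replicate block and 1 with the DESeq2 test, and 0 to 1 when a library was left out. The member lost in each case was Zbtb46, except that the filter of 1 CPM left it untested and that Flt3 was lost as well without knockout replicate 1 or control replicate 2. Ackr3 (log2 fold change -0.24), which never passed, ranged from -0.76 to 0.61 when a library was left out, changing sign to 0.19 without knockout replicate 1 and to 0.61 without control replicate 2. Of 38 named genes that could be fitted, 30 kept their call in every setting that tested them. The count of genes passing was 7848, with a range of 6091 to 7554 when a library was left out, 6167 without the low-count filter, 7263 with DESeq2 and 7400 with the older quasi-likelihood form. The other lists held 70 passing genes, and 58 to 69 when a library was left out. Scalings moved the median log2 fold change by at most 0.02. The replicate block left 7843 genes passing. Deviations of same-numbered libraries from their group means had a correlation of 0.015 across 15832 genes over 2 pairs, which does not show whether same-numbered libraries share a source. Apart from Zbtb46 the block changed no call of a named gene. Depth limits Ccl17, Ido1, Ccr4, Zbtb46 and Cd209a, each with few counts in every library.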
